A study of Mus musculus with 4 samples.

Results

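The RNA of the 4 kinases that phosphorylate eIF2alpha, and of 4 genes that set how strongly that phosphorylation acts, was measured in LSK cells with and without *Bptf*. LSK cells are lineage-, SCA-1+, c-KIT+ bone marrow cells, the fraction that contains the hematopoietic stem and progenitor cells. The 8 genes were chosen by symbol for their known roles upstream of the transcription factor ATF4, and all 8 were found among the 18598 genes of the deposited table. They are the kinases *Eif2ak1*, *Eif2ak2*, *Eif2ak3* and *Eif2ak4*, the substrate gene *Eif2s1*, the phosphatase subunit gene *Ppp1r15b*, and the kinase inhibitor genes *Impact* and *Dnajc3*. The data comprised 2 Bptf cKO libraries, labelled *Bptf* -/-, and 2 control libraries, which the study names Bptf f/f. All mice were C57BL/6 and about 3 months old, and cells of 5 mice were pooled for each library. The cKO mice carried floxed *Bptf* alleles and the *Mx1*-cre transgene, and the controls were littermates with floxed *Bptf* alleles and no cre. Both groups received pIpC, a synthetic double-stranded RNA that turns on *Mx1*-cre through interferon, and cells were sorted 10 days after cre induction. *Mx1*-cre is active wherever cells respond to interferon and not in blood cells alone.

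eIF2 brings the initiator tRNA to the ribosome, and phosphorylation of its alpha subunit blocks the exchange factor eIF2B, which lowers general translation and raises translation of the *Atf4* mRNA. Each kinase has its own trigger: heme shortage or mitochondrial stress for HRI, double-stranded RNA for PKR, unfolded protein in the endoplasmic reticulum (ER) for PERK, and uncharged tRNA or stalled ribosomes for GCN2. The kinases are switched on as proteins, by dimerization and autophosphorylation, so an RNA level gives the amount of message and not the activity of the kinase. Phosphorylation of eIF2alpha or of any kinase was not part of these data.

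Reads on listed genes came to between 14091054 and 30134742 per library, with the replicate 1 libraries of both genotypes the deeper ones. The 8 genes had between 459 and 6264 reads in each library. *Bptf* had 5520 and 5850 normalized counts (gene counts divided by a size factor for the library) in Bptf f/f and 3398 and 3320 in Bptf cKO. Its difference was -0.76 on the log2 scale, with an adjusted p of 0.0439 in limma and 0.0531 in edgeR. The replicate 2 libraries of both genotypes stood apart from the replicate 1 libraries. *Xist*, which female cells express, had 15675 and 11843 normalized counts in replicate 2 of Bptf f/f and Bptf cKO and at most 3.25 in replicate 1. *Pou5f1*, a gene of pluripotent cells, had 582 and 738 in replicate 2 and 0 in replicate 1. The same pattern held for *Nanog* (36.0 and 43.7 in replicate 2), *Zfp42* (79.0 and 84.7) and *Sox2* (23.6 and 24.0), all at 0 in replicate 1. Since one library of each genotype carried these transcripts, the difference within each replicate number is given for every member. The LSK markers were present, with *Kit* between 13634 and 17051 and *Ly6a*, which encodes SCA-1, between 726 and 1743 normalized counts. The 6 erythroid markers summed to 592 to 863 normalized counts in Bptf f/f and 167 to 233 in Bptf cKO, and 5 of the 6 did not overlap between the genotypes (47.0% of all genes tested did not), with *Epor* alone past the limma test. The 8 granulocyte and monocyte markers summed to 10542 to 68880 in Bptf f/f and 35784 to 44449 in Bptf cKO. The 5 B-cell markers summed to 1559 to 5461 and 1916 to 3096, and the 4 macrophage markers to 178 to 323 and 209 to 646, in the same order. Of the 5 T-cell markers *Lck* alone had a row, and the B-cell marker *Ms4a1* was at 0 in Bptf cKO replicate 2. In bulk RNA fewer cells of a type and less RNA per cell cannot be told apart. Nothing in the labels says whether the pools of a group were sorted separately, so the spread between libraries may be partly technical. The *Xist* and *Pou5f1* values above differed between the 2 libraries of each genotype, so that spread also holds a difference in the material sequenced.

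With genotype as the only factor, none of the 8 genes passed an adjusted p of 0.05 in the comparison of Bptf cKO with Bptf f/f LSK cells. *Eif2s1* and *Dnajc3* had the largest differences, higher by 28.8% and 29.7% of the mean in Bptf cKO. The means of *Eif2ak2* and *Eif2ak4* differed by -18.2% and -16.5%, and none of these reached the threshold in that fit. Fits that also took the replicate number as a factor called some of the 8 genes and are given in the last section. The log2 fold changes of the 8 genes ran from -0.29 to 0.38, and their 95% intervals, unadjusted, together spanned -0.55 to 0.64. The test was two-sided and by limma, on log2 values after adding a pseudocount of 1, with Benjamini-Hochberg adjustment over the 14858 genes whose mean reached 10 normalized counts. Of all genes tested, 110, or 0.74%, passed it, and the smallest absolute log2 fold change among them was 0.758, that of *Bptf*. By edgeR and by DESeq2 on the recovered reads 0 of the 8 members passed as well, beside 0.633% and 5.44% of all genes tested. At an unadjusted p under 0.05 there were 3 members, *Eif2s1*, *Dnajc3* and *Eif2ak2*, beside 15.7% of all genes tested. In 7 of the 8 genes the values of the genotypes did not overlap, which 47.0% of all genes tested also did. The median absolute log2 fold change was 0.19 for the members and 0.21 for all genes tested, and the median SD between replicates was 0.065 and 0.18 on the log2 scale. For the 5740 genes tested whose mean lay in the range of the members these medians were 0.14 and 0.11, so the members had the larger median difference and the smaller spread of the 2 sets. With 2 libraries per genotype the smallest p that an exact permutation test allows for 1 gene is 0.333.

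**Figure D1:**
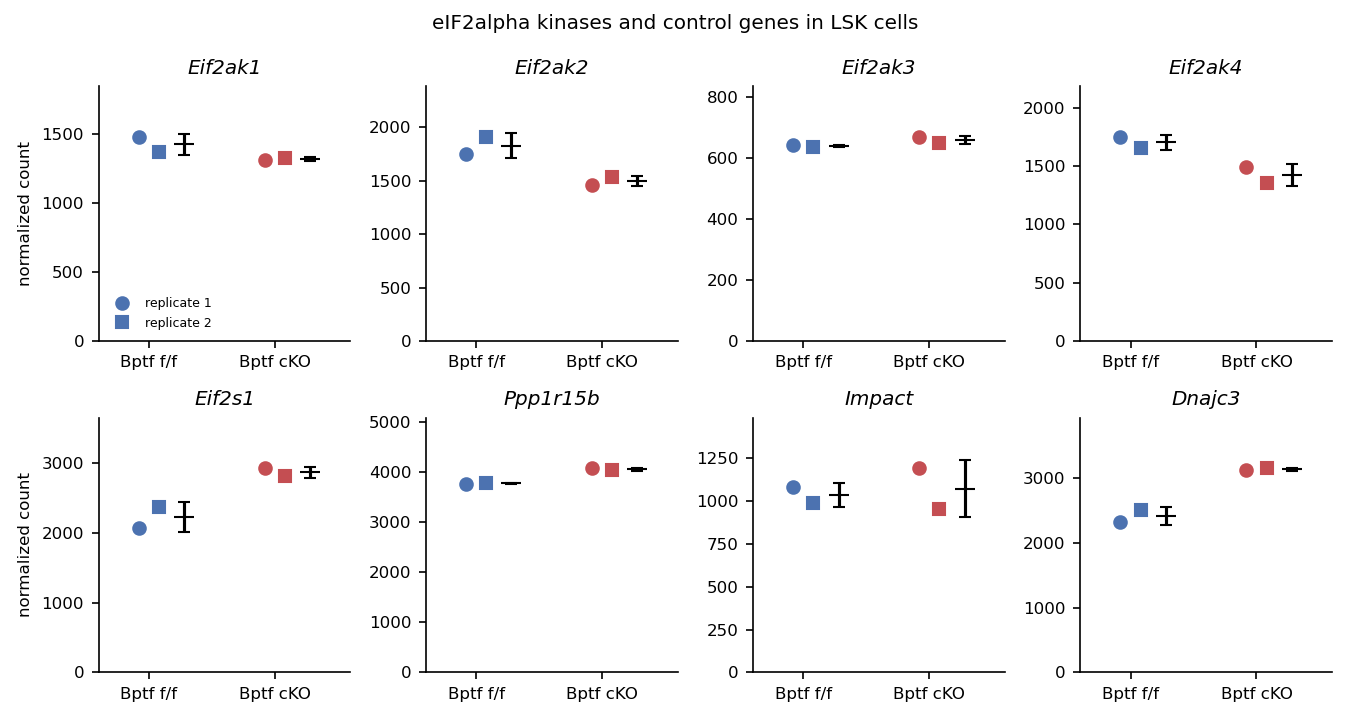
Normalized counts (y axis, linear from 0) of the 8 genes in each library, by genotype (x axis), with circles for replicate 1 and squares for replicate 2 and with the mean and SD (n = 2 libraries) in black. The Bptf cKO libraries lie above both Bptf f/f libraries for *Eif2s1* and *Dnajc3*, below them for *Eif2ak2* and *Eif2ak4*, and on both sides of them for *Impact*.

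Among the kinases, *Eif2ak2* encodes PKR, which double-stranded RNA switches on and whose gene is itself induced by interferon. The gene is on chromosome 17, minus strand, from 78852564 to 78882573 (GRCm38, GENCODE vM21). It had 1749 and 1910 normalized counts in the Bptf f/f libraries, replicate 1 first, and 1462 and 1532 in the Bptf cKO libraries. Both Bptf cKO libraries were the low ones. On the log2 scale Bptf cKO differed from Bptf f/f by -0.29 (standard error 0.10, adjusted p in limma 0.283), with -0.26 within replicate 1 and -0.32 within replicate 2.

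*Eif2ak4* encodes GCN2, the kinase that senses uncharged tRNA, and lies on the plus strand of chromosome 2 from 118388618 to 118475234. Its normalized counts were 1750 and 1659 in Bptf f/f and 1490 and 1357 in Bptf cKO. The genotypes did not overlap, and within each genotype replicate 1 was the higher library. The difference came to -0.26 on the log2 scale (standard error 0.11, adjusted p in limma 0.33), with -0.23 and -0.29 within replicates 1 and 2.

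*Eif2ak1* encodes HRI, the heme-regulated kinase known best from red cell precursors, and lies on chromosome 5 from 143817788 to 143904251. It had 1478 and 1369 normalized counts in Bptf f/f and 1309 and 1329 in Bptf cKO. The Bptf cKO values were lower, but the nearest libraries of the genotypes were closer to each other than the Bptf f/f libraries were. This was a log2 difference of -0.11 (standard error 0.10, adjusted p in limma 0.683), with -0.18 and -0.043 within replicates 1 and 2. The erythroid markers given above, of which 1 of 6 passed limma, all had log2 fold changes below 0, with a median of -2.01, and their part in the *Eif2ak1* value was not tested. *Eif2ak1* exons share 487 bases with *Aimp2* and 172 with *Ankrd61* on the opposite strand, and whether the counting used strand is not given in the sources used here. Opposite-strand noncoding or unclassified genes likewise share 640 exonic bases with *Ppp1r15b*, 485 with *Eif2ak3* and 174 and 47 with *Eif2ak2*, so reads there cannot be assigned to 1 gene.

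*Eif2ak3* encodes PERK, the kinase of the ER membrane, and lies on chromosome 6 from 70844515 to 70905245. It had the narrowest range of the kinases, with 640 and 636 normalized counts in Bptf f/f and 668 and 649 in Bptf cKO, the highest library being 1.05 times the lowest. Its log2 difference was 0.045 (standard error 0.12, adjusted p in limma 0.909), and the 95% interval ran from -0.26 to 0.35. Within replicates 1 and 2 it was 0.061 and 0.029.

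*Eif2s1* encodes eIF2alpha itself, the common substrate of the kinases, and lies on chromosome 12 from 78861819 to 78887010. It had 2074 and 2376 normalized counts in Bptf f/f and 2921 and 2809 in Bptf cKO. Every Bptf cKO value was above every Bptf f/f value. Bptf cKO exceeded Bptf f/f by 0.37 on the log2 scale (standard error 0.11, adjusted p in limma 0.217), with a 95% interval of 0.093 to 0.64. The difference was 0.49 within replicate 1 and 0.24 within replicate 2.

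*Ppp1r15b* encodes CReP, the constitutive subunit that brings protein phosphatase 1 to eIF2alpha and so reverses the kinases. It lies on chromosome 1 from 133131143 to 133139783. It had 3762 and 3785 normalized counts in Bptf f/f and 4071 and 4035 in Bptf cKO. The SD between replicates (n = 2) was 16.0 normalized counts in Bptf f/f and 25.3 in Bptf cKO, and the genotypes did not overlap. The log2 difference was 0.10 (standard error 0.086, adjusted p in limma 0.634), with 0.11 and 0.092 within replicates 1 and 2. In limma the variance of a gene is drawn toward that of all genes of like level.

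*Impact* encodes a protein that competes with GCN2 for its activator GCN1 and so holds GCN2 back. Its gene is on chromosome 18 from 12955852 to 12992950. It had 1085 and 987 normalized counts in Bptf f/f and 1191 and 957 in Bptf cKO. It was the only member whose genotypes overlapped, the Bptf cKO libraries being the highest and the lowest of the 4. Its mean log2 difference was 0.045 (standard error 0.15, adjusted p in limma 0.929), with 0.13 within replicate 1 and -0.045 within replicate 2.

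*Dnajc3* encodes p58IPK, a J-domain cochaperone of the ER that was first described as an inhibitor of PKR and also restrains PERK. It lies on chromosome 14 from 118937976 to 118981697. It had 2319 and 2510 normalized counts in Bptf f/f and 3117 and 3146 in Bptf cKO. The Bptf cKO libraries were the high ones, at nearly the same value. The mean log2 difference was 0.38 (standard error 0.095, adjusted p in limma 0.168, the smallest of the 8 genes), with a 95% interval of 0.14 to 0.62. The difference was 0.43 within replicate 1 and 0.33 within replicate 2. DESeq2 gave *Dnajc3* an adjusted p of 0.07.

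**Figure D2:**
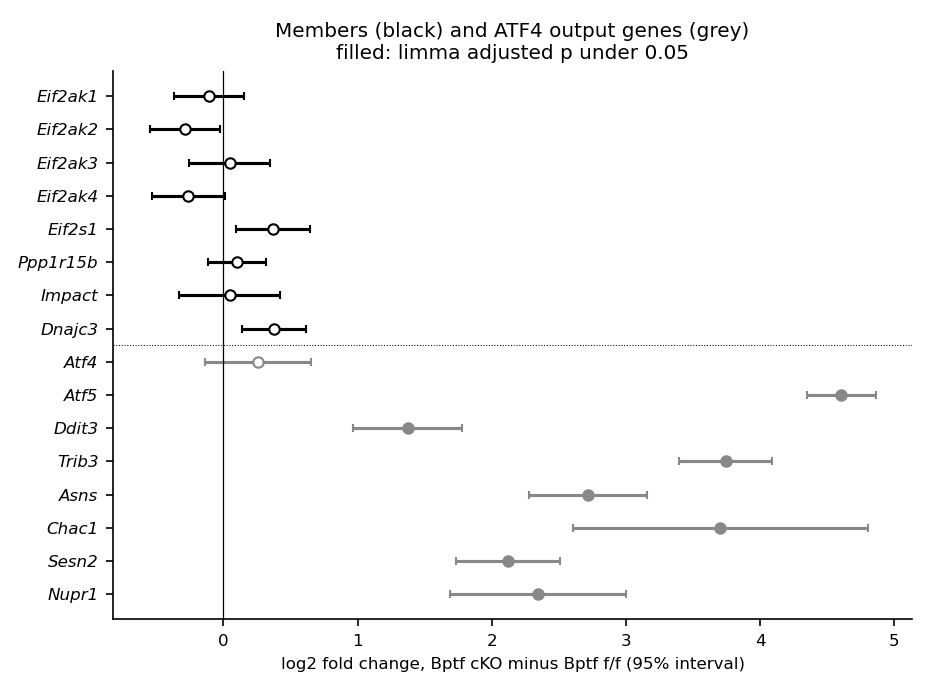
Log2 fold changes of Bptf cKO minus Bptf f/f (x axis) with 95% intervals from limma for the 8 members in black and for the 8 ATF4 output genes in grey, with filled points for an adjusted p under 0.05. No member is filled and all members lie between -0.29 and 0.38, while 7 of the 8 output genes are filled, from 1.37 to 4.61.

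The 3 members at an unadjusted p under 0.05 have a RefSeq promoter (GRCm38.p6), and the 250 bases before the start are shown because binding sites of the pathways named here would be sought there. *Dnajc3* is at chr14:118937682-118937931 on the plus strand, *Eif2s1* at chr12:78861822-78862071 on the plus strand and *Eif2ak2* at chr17:78882573-78882822 on the minus strand, each printed 5′ to 3′ along its gene. Capitals mark letters that match one of the 4 motifs searched.
Dnajc3: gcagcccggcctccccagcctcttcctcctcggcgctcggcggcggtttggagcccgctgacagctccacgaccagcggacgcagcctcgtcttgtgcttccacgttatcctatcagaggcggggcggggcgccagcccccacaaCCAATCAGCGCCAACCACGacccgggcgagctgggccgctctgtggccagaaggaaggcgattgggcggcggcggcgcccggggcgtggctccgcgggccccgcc
Eif2s1: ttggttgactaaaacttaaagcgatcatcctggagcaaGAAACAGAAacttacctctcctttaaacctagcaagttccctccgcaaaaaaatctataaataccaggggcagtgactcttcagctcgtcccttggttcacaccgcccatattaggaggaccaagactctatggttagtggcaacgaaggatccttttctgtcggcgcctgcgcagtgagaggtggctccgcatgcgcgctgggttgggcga
Eif2ak2: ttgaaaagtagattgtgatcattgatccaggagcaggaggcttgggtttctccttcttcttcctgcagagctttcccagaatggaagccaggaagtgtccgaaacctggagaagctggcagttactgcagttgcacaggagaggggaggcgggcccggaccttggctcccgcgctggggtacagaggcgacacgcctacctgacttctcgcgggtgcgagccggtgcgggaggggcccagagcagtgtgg

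The motifs were searched on both strands of the 250 bases. They were the ER stress response element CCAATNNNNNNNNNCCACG, bound by ATF6 with NF-Y, the UPR element TGACGTGG, bound by ATF6 and XBP1, the amino acid response core TGATGNAA, bound by ATF4 with C/EBP partners, and the interferon-stimulated response core GAAANNGAA. The *Dnajc3* promoter holds the ER stress response element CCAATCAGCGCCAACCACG on its own strand, from 105 to 87 bases before the start. That element is held by 0.113% of the 32851 RefSeq promoters on either strand. The *Eif2s1* promoter holds the interferon core as GAAACAGAA, from 212 to 204 bases before the start, as do 7.13% of all promoters. The RefSeq start used for *Eif2s1* lies downstream of the GENCODE start, so this whole window is inside the gene as placed above. No motif was matched in the *Eif2ak2* window, nor in those of *Eif2ak1*, *Eif2ak3* and *Eif2ak4*, while 3.45% and 0.563% of all promoters hold the amino acid response core and the UPR element. The searched motifs share no bases in these windows. Of the 8 genes 6 were matched to a promoter, *Eif2ak4* with 2 starts, and a match of letters is not evidence that a factor binds there. The share of G and C ran from 50.4% in the *Eif2s1* promoter to 73.6% in that of *Dnajc3*, against a median of 52.4% over all promoters.

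Per kilobase of the longest annotated transcript, *Eif2ak2* was the highest kinase message in LSK cells and *Eif2ak3* the lowest. In Bptf f/f LSK cells *Eif2ak2* had 424 ± 26.4 normalized counts per kilobase (SD, n = 2), *Eif2ak1* 329 ± 17.8, *Eif2ak4* 322 ± 12.2 and *Eif2ak3* 141 ± 0.642. *Eif2ak1* and *Eif2ak4* did not differ beyond their spread, and the ranges of the other neighbours in that order did not overlap. The other members in Bptf f/f were *Ppp1r15b* at 675 ± 2.86, *Eif2s1* at 653 ± 62.6, *Dnajc3* at 470 ± 26.2 and *Impact* at 275 ± 18.5 normalized counts per kilobase. *Ppp1r15b* and *Eif2s1* did not differ beyond their spread. In Bptf cKO the order was *Eif2s1* at 841 ± 23.2, *Ppp1r15b* at 725 ± 4.53, *Dnajc3* at 609 ± 4.04, *Eif2ak2* at 347 ± 11.6, *Eif2ak1* at 305 ± 3.3, *Impact* at 285 ± 44.1, *Eif2ak4* at 269 ± 17.7 and *Eif2ak3* at 146 ± 2.99. *Impact* there overlapped both *Eif2ak1* and *Eif2ak4*. Per kilobase of coding sequence the kinases kept their order, but *Eif2ak1* and *Eif2ak4* came apart in Bptf f/f, at 767 ± 41.4 and 345 ± 13.0 normalized counts per coding kilobase. *Eif2s1* then stood above *Ppp1r15b* in Bptf f/f, at 2354 and 1805, and *Impact*, at 1086, above *Eif2ak1*. The order of these members therefore depends on the length used.

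The 4 kinase messages summed to 1219 and 1214 normalized counts per kilobase in Bptf f/f and to 1071 and 1063 in Bptf cKO. *Eif2ak2* made up 33.2% and 36.5% of that sum in Bptf f/f and 31.7% and 33.4% in Bptf cKO, ranges that overlap. *Eif2ak3* made up 11.6% in both Bptf f/f libraries and 13.8% and 13.5% in Bptf cKO. The substrate message stood at 0.50 and 0.575 of the kinase sum in Bptf f/f and at 0.801 and 0.776 in Bptf cKO. *Dnajc3* stood at 1.11 and 1.10 times *Eif2ak2* in Bptf f/f and at 1.79 and 1.72 times in Bptf cKO, per kilobase. These ratios describe the libraries and were not tested, as the numerator and denominator are members already described.

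**Figure D3:**
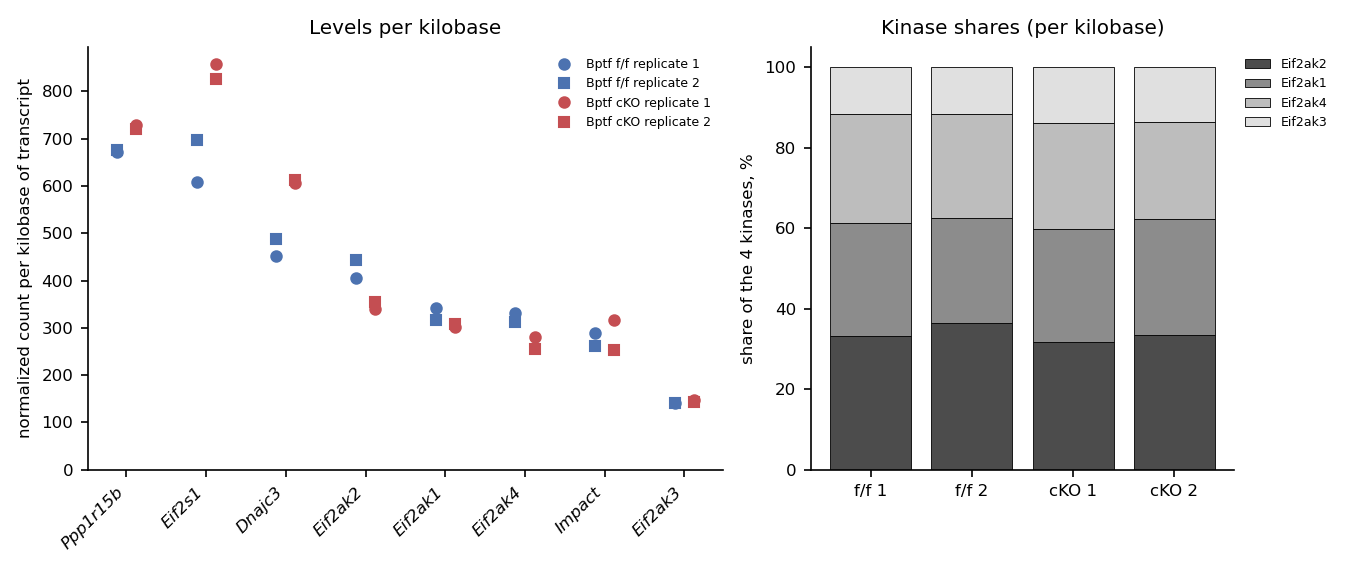
Left, normalized counts per kilobase of the longest transcript (y axis) for each member (x axis, ordered by the Bptf f/f mean), with circles for replicate 1, squares for replicate 2, blue for Bptf f/f and red for Bptf cKO. Right, the share of each kinase in the sum of the 4 kinases in each library, where *Eif2ak3* takes 11.6% to 13.8%.

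Of the 8 genes listed as driven by ATF4 or as reporting its activity, 7 changed far more than the members did. These 7 rose past the limma test and 0 fell. The median log2 fold change of the 8 was 2.53, beside 0.0010 over all genes tested. *Ddit3*, which encodes the stress factor CHOP, had 357 and 412 normalized counts in Bptf f/f and 903 and 1092 in Bptf cKO, which is 1.37 on the log2 scale (adjusted p in limma 0.0429). *Sesn2*, an inhibitor of mTORC1, rose by 2.12 (0.0204), *Nupr1*, a stress-induced nuclear protein, by 2.35 (0.0368) and *Chac1*, which degrades glutathione, by 3.70 (0.043) on the log2 scale, with the limma adjusted p in brackets. *Atf5*, *Trib3* and *Asns* were the other genes that rose, by 4.61, 3.74 and 2.72. *Atf4* itself, which is controlled mainly in translation, had 6633 and 8840 normalized counts in Bptf f/f and 8852 and 9469 in Bptf cKO, a log2 difference of 0.26 (adjusted p in limma 0.501). These genes were listed with their rise in these libraries already known. The stress-induced *Ppp1r15a*, lower in Bptf cKO (log2 fold change -0.60, limma adjusted p = 0.455), was listed with the phosphatase genes and not here.

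Of the partner genes that control single kinases, none passed limma. For GCN2 none of 5 passed, with a median log2 fold change of 0.17 and 0 at an unadjusted p under 0.05. Of these *Gcn1l1*, which encodes the activator GCN1, had 0.17, and *Rplp0* and *Rplp1*, of the ribosomal stalk that also activates GCN2, had 0.23 and 0.17. For PKR none of 6 passed, with a median of 0.056 and 1 at an unadjusted p under 0.05. *Prkra*, which encodes the activator PACT, had -0.19, and *Tarbp2*, which encodes an inhibitor, had 0.018, and *Prkrip1*, a PKR-interacting inhibitor, had 0.094. The gene at an unadjusted p under 0.05 was *Dus2*, named after its values were seen, whose product binds PKR, with 178 and 128 normalized counts in Bptf f/f and 260 and 279 in Bptf cKO (limma adjusted p = 0.202). For HRI none of 5 passed, with a median of 0.022 and 0 at an unadjusted p under 0.05. The row *0610009O20Rik*, an older symbol of *Dele1*, had -0.084, and *Oma1*, which encodes the protease that releases DELE1 from mitochondria, had 0.089. *Hsp90aa1*, a chaperone of HRI, had -0.12. For PERK none of 3 passed, with a median of -0.15 and 0 at an unadjusted p under 0.05. *Hspa5*, which encodes BiP and holds PERK inactive, had 13472 and 30574 normalized counts in Bptf f/f, a wider spread than the gap between the genotypes, and 16481 and 20291 in Bptf cKO. *Hsp90b1* and *Nck1* had log2 fold changes of 0.24 and -0.26. By edgeR and by DESeq2 0 of these genes passed. An unadjusted p under 0.05 in limma was held by 15.7% of all genes tested.

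The interferon-stimulated genes, the list beside which *Eif2ak2* is read, were lower in Bptf cKO in most cases without passing the test. Of 17 genes 0 passed limma or edgeR and 3 passed DESeq2, with 9 at an unadjusted p under 0.05. Over all genes tested 5.44% passed DESeq2 and 15.7% had such a p, in either direction. The log2 fold change was below 0 in 15 of the 17, and in 14 both Bptf cKO libraries were below both Bptf f/f libraries, where 47.0% of all genes tested did not overlap in one direction or the other. The median was -0.45 beside -0.29 for *Eif2ak2*. *Isg15* had a log2 fold change of -0.31, *Ifit1* -0.60 and *Ifit2* -0.28, with limma adjusted p values of 0.605, 0.305 and 0.307. *Mx1*, named after its values were seen because its promoter drives the cre, had 227 and 179 normalized counts in Bptf f/f and 96.2 and 71.96 in Bptf cKO (log2 fold change -1.27, limma adjusted p = 0.126). The part of these genes' difference in the *Eif2ak2* value was not tested.

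The ER unfolded protein response list holds targets of ATF6 and XBP1, to which *Dnajc3* is usually counted. It had 0 of 13 genes past limma or edgeR and 2 past DESeq2, with 3 at an unadjusted p under 0.05. Among all genes tested 5.44% passed DESeq2 and 15.7% had such a p. The log2 fold change was above 0 in 10 genes and the median was 0.22, beside 0.38 for *Dnajc3*. *Herpud1*, named after its values were seen, a gene of ER-associated degradation, had 1816 and 2066 normalized counts in Bptf f/f and 3526 and 3388 in Bptf cKO (log2 fold change 0.83, limma adjusted p = 0.0524). *Dnajb9*, a cochaperone of BiP, had -0.45 and *Sdf2l1*, an ER stress protein, 0.20.

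Of the other subunits that *Eif2s1* works with, 0 of 7 passed limma, edgeR or DESeq2, and 0 were at an unadjusted p under 0.05 in limma. *Eif2s2*, the beta subunit of eIF2, had 1192 and 1933 normalized counts in Bptf f/f and 2031 and 2514 in Bptf cKO (log2 fold change 0.57, limma adjusted p = 0.363). Replicate 2 was the higher library in both genotypes, and the difference was 0.77 within replicate 1 and 0.38 within replicate 2. *Eif2s3x*, the gamma subunit, and *Eif2b1*, of the exchange factor, had 0.061 and 0.13. The other 4 eIF2B subunits lay between -0.016 and 0.062. Of the 4 genes of the eIF2alpha phosphatase 0 passed limma, edgeR or DESeq2, and 0 were at an unadjusted p under 0.05 in limma. *Ppp1r15a*, which encodes GADD34, the stress-induced counterpart of CReP, had 4100 and 8294 normalized counts in Bptf f/f and 3759 and 3946 in Bptf cKO. Its log2 fold change was -0.60 (limma adjusted p = 0.455), with -0.13 within replicate 1 and -1.07 within replicate 2. Replicate 2 of Bptf f/f was the high library. The catalytic subunits *Ppp1ca* and *Ppp1cb* had 0.042 and -0.083.

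The heme list, read beside *Eif2ak1*, had 0 of 11 genes past limma, edgeR or DESeq2, with a median of -0.056. At an unadjusted p under 0.05 there were 2, beside 15.7% of all genes tested. *Alas1*, the first enzyme of heme synthesis outside red cells, had -0.052. *Alas2*, its erythroid form, had 13.2 and 31.9 normalized counts in Bptf f/f and 3.25 and 2.82 in Bptf cKO, from as few as 2 reads. *Alad*, the next enzyme, had 1125 and 1173 in Bptf f/f and 890 and 900 in Bptf cKO (log2 fold change -0.36, limma adjusted p = 0.216).

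**Figure D4:**
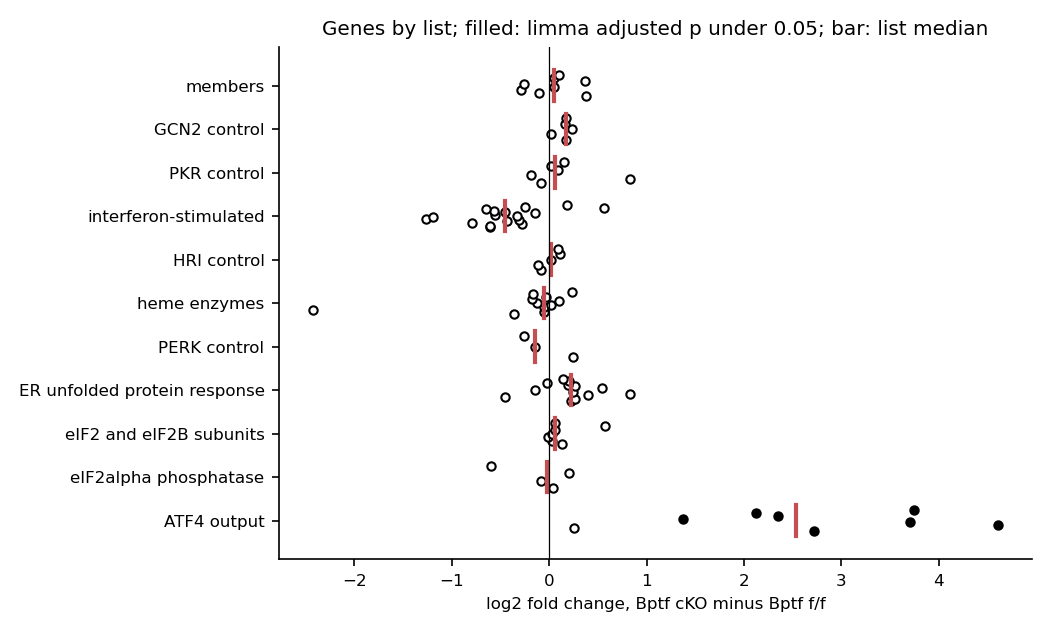
Log2 fold changes of Bptf cKO minus Bptf f/f (x axis), 1 point per gene, for the members and for each list of related genes (y axis), with filled points for a limma adjusted p under 0.05 and a red bar at the median of the list. Filled points occur in the ATF4 output list alone, and the interferon-stimulated list has its median at -0.45.

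The genes whose pattern over the 4 libraries was closest to each kinase were found among 10814 others whose mean reached 100 normalized counts, by the root mean square difference of centred log2 values. They were *Smad1* and *Mast2* for *Eif2ak2* (differences of 0.011 and 0.014), *Rsbn1l* and *Nck1* for *Eif2ak4* (0.0084 and 0.011), *Pibf1* and *Apbb1ip* for *Eif2ak1* (0.0051 and 0.0073), and *Taf2* and *Ercc6* for *Eif2ak3* (0.0016 and 0.0021). With 4 libraries such likeness is common. The number of genes within 0.05 of a kinase was 140 for *Eif2ak2*, 154 for *Eif2ak4*, 332 for *Eif2ak1* and 620 for *Eif2ak3*.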

How the data were processed

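RNA of sorted LSK cells was sequenced from 2 Bptf cKO and 2 Bptf f/f pools, grouped by the sample titles. The deposited signal values are gene counts that the authors divided by 1 size factor per library. The submitters' processing notes name HISAT2, featureCounts, DESeq2 and GRCm38/mm10, without versions. The authors' own fold changes and p-values in the table were not used. Each value was a whole multiple (tolerance 0.01) of its library's smallest non-zero value, and 100% of the values gave whole reads. The smallest sum over the 4 libraries was 11 reads per gene.

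Genes whose mean reached 10 normalized counts were compared with limma 3.58.1 (mean-variance trend, R 4.3.3) on log2(normalized count + 1), with genotype as the only factor and an adjusted p threshold of 0.05. This scale understates the change of low genes. edgeR 4.0.16 (quasi-likelihood, TMM) and DESeq2 1.42.0 (Wald) were run on the recovered reads. The main limma fit, the limma fit with replicate number as an added factor and the edgeR fit, but not DESeq2, were also run on simulated counts. Those counts had no replicate effect and held changes larger than those of the members, so they do not bear on differences of the members' size. Coordinates and lengths are from GENCODE vM21, and promoters from RefSeq. The genes named are all members, every pathway gene past the limma test and up to 3 others per list in list order, and for each kinase the 2 most alike in pattern. *Dus2*, *Mx1* and *Herpud1* were named outside this rule, after their values were seen. The members and lists were chosen with earlier results of these data known.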

Additional observations from a re-analysis of the deposited data

How the results depend on the processing

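Across 14 alternatives the log2 fold changes of the 8 members kept their direction in 110 of 112 cases. The exceptions were both *Impact*, whose leave-one-out values ran from -0.11 to 0.20, and was -0.024 without Bptf f/f replicate 2 and -0.11 without Bptf cKO replicate 1. Members passing an adjusted p of 0.05 numbered 0 in every fit without a block. The replicate numbers are shared between the genotypes. No source says that they mark a batch, but *Xist* and *Pou5f1* set replicate 2 apart from replicate 1 in both genotypes. Deviations of same-numbered libraries correlated at 0.452 over the tested genes. The correlation was 0.638 across the 10815 that averaged 100 normalized counts or more, which included all 8 members. With the replicate block 2 members passed in limma, *Dnajc3* (adjusted p = 0.0145) and *Eif2s1* (0.0236), and 3 in edgeR, with *Eif2ak2* added (0.0445). Of all 14858 genes tested, the block called 2138 in limma and 2120 in edgeR, and of the pathway genes 23 and 23. The 23 in limma included *Eif2s2* (adjusted p = 0.0044) and *Ppp1r15a* (0.0315).

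DESeq2 called 808 genes and 12 pathway genes, and limma without the mean-variance trend 2 and 1, against 110 and 7. Leaving out 1 library gave 1 to 117 genes and 1 to 6 pathway genes, with 64 genes without Bptf f/f replicate 2 and 1 without either Bptf cKO library, where a single library stands for the genotype and is assumed to vary like the others. Pseudocounts of 0.5 and 10, no filter, a mean of at least 50 and recentring on the medians, which raised log2 fold changes by about 0.05, gave 105 to 134 genes. Levels per kilobase all rose when coding length was used, which is shorter.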
